A study of Mus musculus with 11 samples.

Results

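The transcripts of 10 histone modifier genes were followed in mouse splenic B cells: the H3K27 methyltransferases Ezh2 and Ezh1 with their partners Eed and Suz12, the H3K4 methyltransferase Kmt2d, the acetyltransferases Crebbp and Ep300, the demethylases Kdm6b and Kdm1a, and the deacetylase Hdac3. They were chosen by name, as genes that write, read or erase histone marks in germinal center (GC) B cells and that are linked to GC-derived lymphoma, and are 10 of the 48795 genes in the table. RNA was sequenced from 11 libraries, each from 1 mouse: light zone (LZ) GC B cells of 4 Myc WT and 4 Myc VD mice, and memory B cells (MBCs) of 3 of the 4 Myc WT mice, numbered 1, 3 and 4 as in the LZ. Myc VD mice carry a valine-to-aspartate change at the endogenous Myc locus, which disrupts the binding of MYC to MIZ1 but not to MAX, and the values do not separate the mutant from the wild-type allele. All mice were C57BL/6 females of 8 to 12 weeks, immunized intravenously with sheep red blood cells (SRBC) and analyzed on day 10. LZ B cells were sorted as B220+ CD138neg IgDneg CD38neg Fas+ CD86high CXCR4low, and MBCs as B220+ CD138neg IgDneg CD38+ CD273+. The prefixes of the mouse labels were BRAC861 for Myc WT mice 1 to 3, BRAC1235 for Myc WT mouse 4 and DCCT13 for every Myc VD mouse, so that the prefix and the genotype cannot be told apart. Values are TPM, a length-normalized estimate of transcript abundance whose total is the same in each library. How many reads stand behind a value is not known.

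EZH2 and EZH1 are the alternative catalytic subunits of Polycomb repressive complex 2 (PRC2), which methylates lysine 27 of histone H3 and needs EED and SUZ12 to work. EZH2 is abundant in dividing GC B cells, where it silences cell cycle inhibitors and plasma cell genes, and activating mutations of EZH2 are frequent in GC-type lymphoma. KMT2D places methyl groups on H3K4 at enhancers, and CREBBP and EP300 acetylate H3K27 there. KDM6B removes H3K27 methylation, KDM1A removes H3K4 methylation, and HDAC3 removes acetyl groups within corepressor complexes that BCL6 recruits, which places it opposite to CREBBP at the enhancers of the LZ program. Loss of KMT2D or CREBBP is among the most frequent lesions of follicular lymphoma.

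Promoter sequences from 250 bases before to 50 bases after the start, from the RefSeq promoter table of GRCm38.p6, were used for 8 of the 10 genes. Promoters of Kdm6b and Hdac3 were not searched. Those of the 3 core PRC2 genes whose transcripts were lower in each MBC library than in each Myc WT LZ library are shown, read along the gene, with the words searched for E2F factors in capitals. The Ezh2 window is chr6:47594981-47595280 (minus strand), the Eed window chr7:89980927-89981226 (minus strand) and the Suz12 window chr11:79992856-79993155 (plus strand).
Ezh2: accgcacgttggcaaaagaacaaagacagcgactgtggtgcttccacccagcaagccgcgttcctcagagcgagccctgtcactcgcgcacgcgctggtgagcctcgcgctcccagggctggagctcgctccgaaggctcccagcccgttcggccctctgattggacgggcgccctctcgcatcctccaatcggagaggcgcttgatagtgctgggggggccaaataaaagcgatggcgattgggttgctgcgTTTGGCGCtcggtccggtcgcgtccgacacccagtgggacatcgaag
Eed: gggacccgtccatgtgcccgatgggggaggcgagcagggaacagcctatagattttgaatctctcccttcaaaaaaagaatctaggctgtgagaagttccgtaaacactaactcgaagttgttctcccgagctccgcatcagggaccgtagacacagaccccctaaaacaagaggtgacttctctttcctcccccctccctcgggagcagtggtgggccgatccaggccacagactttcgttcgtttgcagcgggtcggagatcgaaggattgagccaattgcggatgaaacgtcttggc
Suz12: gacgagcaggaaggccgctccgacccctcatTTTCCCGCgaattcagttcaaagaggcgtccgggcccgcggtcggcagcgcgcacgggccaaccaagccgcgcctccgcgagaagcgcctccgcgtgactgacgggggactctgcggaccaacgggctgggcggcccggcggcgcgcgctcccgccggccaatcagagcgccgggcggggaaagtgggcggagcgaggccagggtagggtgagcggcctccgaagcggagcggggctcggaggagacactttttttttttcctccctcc
The words TTTCCCGC, TTTCGCGC, TTTGCCGC and TTTGGCGC were searched on both strands. Ezh2 holds TTTGGCGC, beginning at base 4 by the RefSeq start (the first transcribed base is 1), and Suz12 holds TTTCCCGC, beginning at base -219, so that 2 of the 8 promoters have a match. By the GENCODE annotation the Ezh2 gene starts upstream of this window, at chr6:47595341. Any of these words was found in 2.26% of all 32851 promoters of the table. Eed holds none in this window. The E-box word CACGTG, searched on both strands, was in none of the 8 windows and in 7.15% of all promoters.

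Within groups the LZ libraries were close to each other and the MBC libraries less so: Pearson's r of log2(TPM + 1) over all genes was 0.964 to 0.981 among Myc WT LZ, 0.925 to 0.950 among Myc VD LZ and 0.834 to 0.897 among MBCs. MBC replicates 1 and 3 had r = 0.834 with each other, and 0.868 to 0.872 and 0.847 to 0.851 with the Myc WT LZ libraries. MBC replicate 4 was nearest to the LZ, with r of 0.932 to 0.942, against 0.897 and 0.872 with MBC replicates 1 and 3, and had 16040 genes above 0 TPM, against 12983 in replicate 1 and 11527 in replicate 3. It was also the MBC library nearest to the Myc WT LZ mean for Eed, Suz12, Hdac3, Kmt2d, Ep300 and, narrowly, Crebbp. For Ezh2 it was the farthest, at 83.3 TPM, and for Ezh1, Kdm6b and Kdm1a another MBC library was nearest. On leaving replicate 4 out, 2754 genes were called between MBCs and LZ in place of 1219. The identity of the sorted cells was checked on marker lists. The summed TPM of 7 GC B cell genes was 1277 to 1555 in Myc WT LZ, 1092 to 1553 in Myc VD LZ and 323 to 445 in MBCs, and that of 8 genes of memory and naive B cells (Cd38, Ccr6 and others) was 242 to 266, 223 to 287 and 1182 to 1461. In the LZ the latter sum was mainly Fcer2a, at 185 to 213 TPM in Myc WT and 165 to 248 TPM in Myc VD. Cd38 was at 11.4 to 14.8 TPM in Myc WT LZ, 6.18 to 18.3 TPM in Myc VD LZ and 200 to 276 TPM in MBCs. The 6 pan-B genes summed to at least 2006 TPM in every library. Markers of other cells were not absent from MBCs. The 4 erythroid genes summed to 4298 TPM in MBC replicate 3, mainly Hbb-bs at 2609 TPM and Hba-a1 at 1646 TPM, against 4.74 and 21.8 TPM in the other MBC libraries and 31.7 to 253 TPM in the LZ. The 6 myeloid genes summed to 17.0 to 165 TPM in MBCs, with Lyz2 at 136 TPM in replicate 4, and to at most 12.4 TPM in the LZ. S100a8 was listed at 0 in all MBC libraries. The 6 T cell genes summed to 0 to 31.2 TPM in MBCs and 26.7 to 68.2 TPM in the LZ. In the LZ this sum was mainly Lck, with a median of 43.9 TPM in Myc WT and 30.4 TPM in Myc VD. Cd3e was at most 6.48 TPM in the LZ, and Cd3d, Cd3g, Cd4 and Cd8a at most 1.82 TPM. In MBCs Lck was at 0 to 26.1 TPM and Cd3e at most 5.37 TPM. The 5 plasma cell genes summed to 193 to 402 TPM in MBCs and 134 to 381 TPM in the LZ. The part of these cells in the results on MBCs was not tested. Ribosomal RNA genes took 35.7% to 44.5% of TPM in Myc WT LZ, 44.1% to 61.3% in Myc VD LZ and 36.1% to 37.5% in MBCs.

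In LZ B cells of Myc WT mice the 10 genes spanned from 236 TPM for Ezh2 to 4.97 TPM for Kdm6b. Ezh2 was at 236 ± 29.2 TPM (mean ± SD, n = 4), Ep300 at 171 ± 31.2, Eed at 148 ± 23.4, Suz12 at 83.4 ± 17.1, Kmt2d at 62.9 ± 8.55, Crebbp at 49.8 ± 9.89, Kdm1a at 32.3 ± 6.19, Hdac3 at 19.4 ± 4.09, Ezh1 at 10.5 ± 2.72 and Kdm6b at 4.97 ± 0.823 TPM. Among neighbors in this order the ranges of Ezh2 and Ep300, Ep300 and Eed, Suz12 and Kmt2d, and Kmt2d and Crebbp overlapped, and those of the other neighbors did not. The same genes led in Myc VD LZ, with Ezh2 at 201 ± 53.9 TPM, Ep300 at 142 ± 49.0 and Eed at 96.7 ± 36.5 (n = 4). In MBCs the order was another: Ep300 led at 377 ± 94.5 TPM (n = 3), followed by Kmt2d at 220 ± 76.1, Ezh2 at 131 ± 55.3 and Crebbp at 130 ± 44.8, and Hdac3 was last at 7.70 ± 8.24 TPM. Among these neighbors in MBCs the ranges of Crebbp and Suz12 alone did not overlap.

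**Figure D1:**
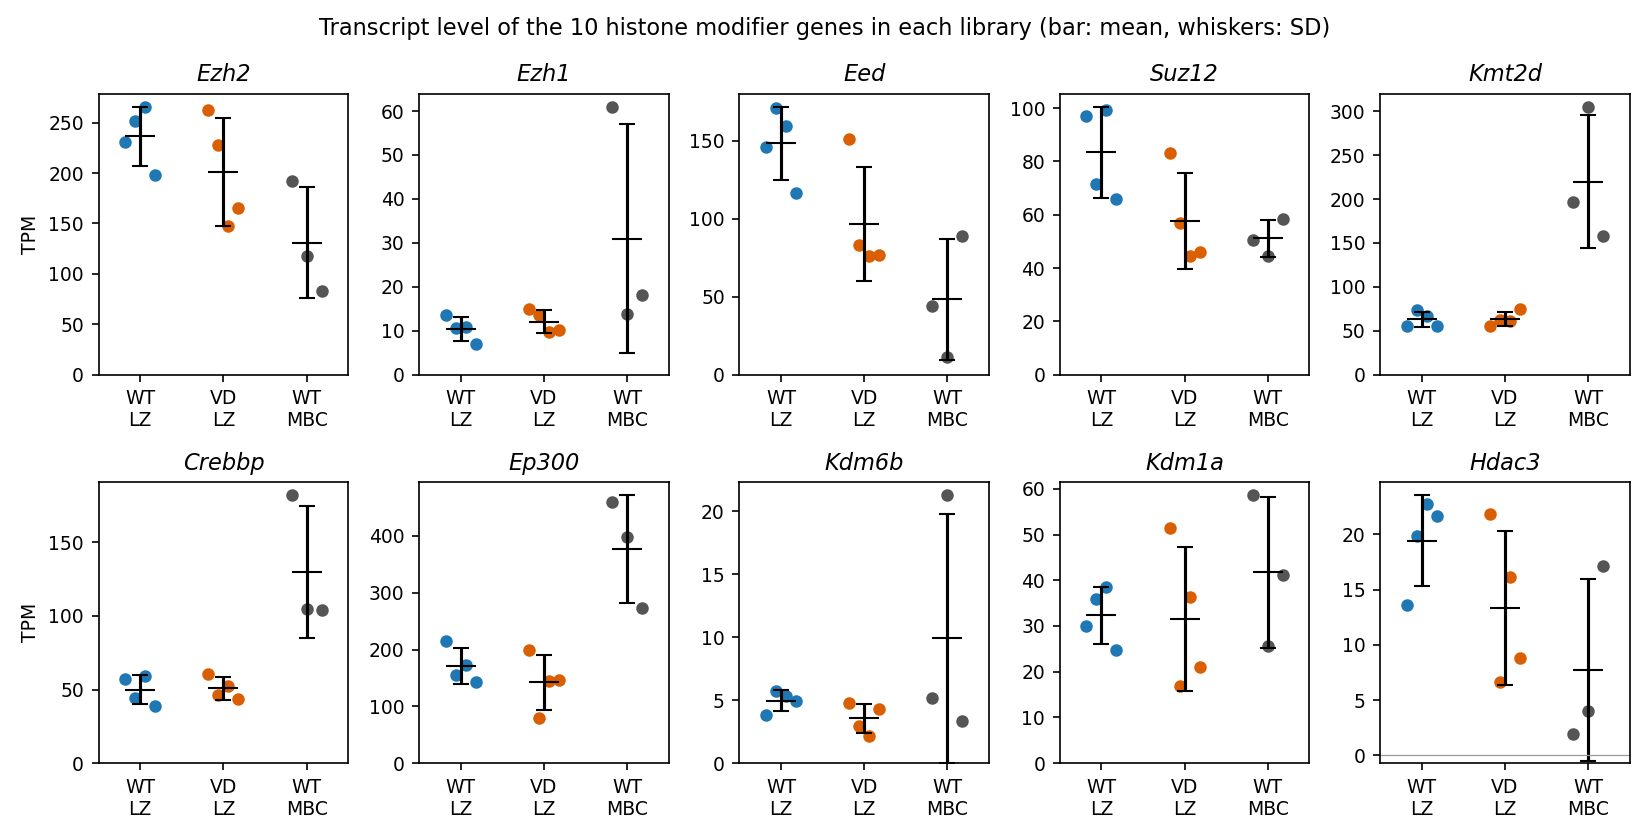
TPM (y axis, linear, a separate scale for each gene) of the 10 genes in each library of the 3 groups; points are libraries, the horizontal bar is the mean and the whiskers are 1 SD, which reaches below 0 for Hdac3 in MBCs. Kmt2d, Crebbp and Ep300 are higher in every MBC library than in any LZ library, and Ezh2 is lower in every MBC library (at most 192 TPM) than in any Myc WT LZ library (at least 198 TPM).

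The comparison of MBCs with LZ B cells of Myc WT mice asks how these transcripts differ between cells inside and outside the GC reaction. Kmt2d rose 3.35-fold, Crebbp 2.53-fold and Ep300 2.17-fold in MBCs. None of the 10 genes fell at an adjusted p under 0.05, but Ezh2, Eed and Suz12 were lower in each MBC library than in each LZ library, at 0.528, 0.250 and 0.625 times the LZ level. The absence of lower calls depended on the scaling: with quantile normalization Ezh2 (-1.11, adjusted p = 0.0296), Eed (-2.03, adjusted p = 0.0320) and Suz12 (-0.89, adjusted p = 0.0385) passed the threshold. Median-ratio rescaling called Eed but not Ezh2 or Suz12 (adjusted p = 0.0907 and 0.0958). Without ribosomal RNA genes Ezh2, Eed and Suz12 all stayed uncalled (adjusted p = 0.0600, 0.0560 and 0.0824). In the fit as reported, 3 of the 10 genes were called higher and 0 lower (limma, Benjamini-Hochberg), where 4.17% of the 13245 genes tested were called higher and 5.04% lower. The groups did not overlap for 4 members on the higher side and 3 on the lower side, against 11.8% and 14.4% of all genes. At an unadjusted p under 0.05, 4 members were lower (Ezh2, Eed, Suz12 and Hdac3), against 15.8% of all genes. The median difference of the 10 genes was 0.40 on the log2 scale and that of all genes was -0.14. Differences are given as MBC minus LZ of mean log2(TPM + 1), which understates changes of low genes, and fold values are on the same scale. In these bulk libraries, fewer cells of a kind and less RNA per cell cannot be told apart.

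Ezh2, the catalytic subunit of PRC2 in dividing cells, was at 231, 252, 265 and 198 TPM in LZ replicates 1 to 4, and at 192, 118 and 83.3 TPM in MBC replicates 1, 3 and 4. The groups did not overlap, although the highest MBC library came close to the lowest LZ library. The difference was -0.92 (SE 0.29, 95% interval -1.59 to -0.26, adjusted p = 0.0836), short of the threshold. It was -1.24 without MBC replicate 1 (adjusted p = 0.0251), -0.89 without MBC replicate 3 (adjusted p = 0.115) and -0.64 without MBC replicate 4 (adjusted p = 0.129). Ezh1, the alternative subunit that prevails in resting cells, went the other way, from 13.5, 10.6, 10.9 and 6.89 TPM in the LZ to 60.9, 13.9 and 18.1 TPM in MBCs. Its lowest MBC value lay just above its highest LZ value, and MBC replicate 1 was far above the others. The difference was 1.21 (SE 0.54, adjusted p = 0.186) and 0.59 without that replicate. Eed, the subunit that binds trimethylated H3K27, was at 146, 171, 159 and 117 TPM in the LZ and at 44.0, 11.5 and 89.2 TPM in MBCs. All MBC libraries were lower, over a wide range. The difference was -2.0 (SE 0.57, adjusted p = 0.0628), and the call changed with the processing and the libraries. Eed was called lower with median-ratio rescaling (-1.99, adjusted p = 0.0386), the GC correction (-1.81, adjusted p = 0.0405) and all 3 groups in 1 fit (adjusted p = 0.0235), and without MBC replicate 3 it was -1.22 (adjusted p = 0.0470) and without MBC replicate 4 it was -2.64 (adjusted p = 0.0135). It was not called with the mouse block (-1.92, adjusted p = 0.126), without ribosomal RNA genes (-2.10, adjusted p = 0.0560) or without MBC replicate 1 (-2.14, adjusted p = 0.0890). Eed passed in 8 of 22 alternatives, the unadjusted p among them. Suz12, the scaffold of the complex, was at 96.9, 71.5, 99.1 and 66.1 TPM in the LZ and at 50.7, 44.6 and 58.4 TPM in MBCs. The difference was -0.68 (SE 0.26, adjusted p = 0.139), with MBC libraries below each LZ library.

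Kmt2d was at 55.9, 73.4, 66.4 and 55.9 TPM in LZ replicates 1 to 4 and at 197, 305 and 158 TPM in MBC replicates 1, 3 and 4. Its lowest MBC library was above the highest LZ library by a wide margin, and the difference of 1.75 (SE 0.28, 95% interval 1.12 to 2.37) had an adjusted p of 0.00841. Crebbp was at 57.2, 43.9, 59.0 and 38.9 TPM in the LZ and at 182, 105 and 104 TPM in MBCs. MBC replicate 1 stood above the other MBC libraries, which in turn stood above the LZ, and the difference was 1.34 (SE 0.30, 0.66 to 2.02, adjusted p = 0.0291). Ep300, the paralog of Crebbp, was at 214, 155, 173 and 143 TPM in the LZ and at 459, 398 and 274 TPM in MBCs. The groups were apart, and the difference was 1.12 (SE 0.25, 0.56 to 1.68, adjusted p = 0.0275). Within the label prefix BRAC861 (3 LZ and 2 MBC libraries) the differences were 1.90 for Kmt2d (adjusted p = 0.0222), 1.36 for Crebbp (adjusted p = 0.0594) and 1.25 for Ep300 (adjusted p = 0.0310). For each member whose groups did not overlap, the exact permutation test gave p = 0.0571, the smallest that it can give with 35 groupings of 3 against 4 libraries.

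Not all of these calls held with fewer libraries or in a fit by mouse. MBCs and LZ B cells came from the same mice, and with the mouse as a replicate block (mice 1, 3 and 4) only Kmt2d kept the call, at 1.82 (adjusted p = 0.0415), while Crebbp was at 1.29 (adjusted p = 0.142) and Ep300 at 1.08 (adjusted p = 0.118). The fit by mouse leaves out LZ replicate 2, whose mouse has no MBC library, and called 248 genes, where the unpaired fit called 342 in the same 6 libraries and 1219 in all 7. Without pairing, Crebbp and Ep300 had adjusted p of 0.0971 and 0.0938 in those 6 libraries. Leaving out any other LZ library also ended the calls of Crebbp and Ep300, as did leaving out MBC replicate 1 (Crebbp 1.07, adjusted p = 0.0521; Ep300 0.96, adjusted p = 0.0613). In these fits Crebbp ranged from 1.07 to 1.43 and Ep300 from 0.96 to 1.23.

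Transcript length moved with the MBC differences. Among protein-coding genes tested, the median difference was -0.80 for the 2124 genes with a longest annotated transcript under 2000 nt, -0.21 from 2000 nt, 0.09 from 4000 nt, 0.29 from 6000 nt and 0.51 for the 545 genes of 8000 nt or more, of which 12.8% were called higher. Kmt2d (19823 nt), Crebbp (10820 nt) and Ep300 (9566 nt) have the longest transcripts of the 10 genes, and Eed (2067 nt) and Ezh2 (2787 nt) the shortest. Genes within 20% of each length had a median difference of 0.91 for Kmt2d (19 genes), 0.50 for Crebbp (329 genes), 0.42 for Ep300 (518 genes), -0.23 for Ezh2 (2393 genes) and -0.47 for Eed (1656 genes). After a correction for transcript length, none of the 10 genes passed the threshold: Kmt2d was at 0.95 (adjusted p = 0.0871), Crebbp at 0.85 (adjusted p = 0.0729), Ep300 at 0.69 (adjusted p = 0.120), Eed at -1.58 (adjusted p = 0.0582) and Ezh2 at -0.68 (adjusted p = 0.250), while 1108 of all genes did. With the mouse block and the length correction together, Kmt2d was at 1.02 (adjusted p = 0.223). A correction for GC content left Kmt2d at 2.09, Crebbp at 1.55 and Ep300 at 1.32, each still called. The part of library preparation or RNA quality in the length trend was not tested.

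**Figure D2:**
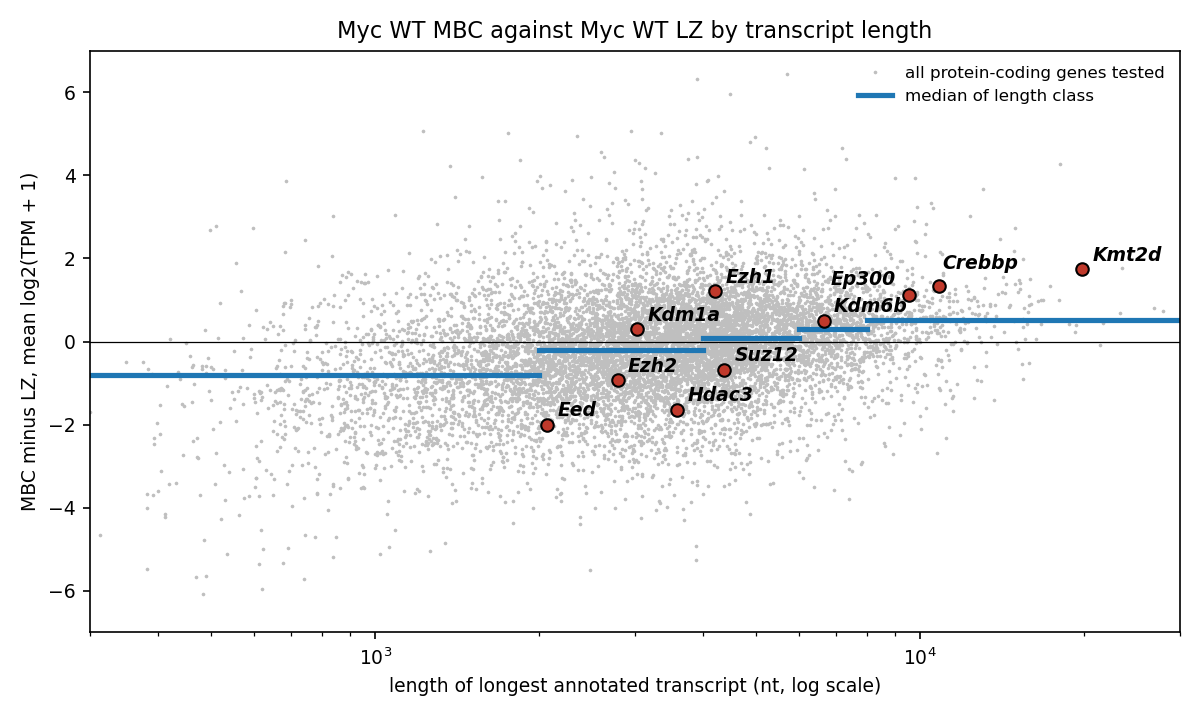
Difference between MBCs and LZ B cells (y axis, mean log2(TPM + 1), MBC minus LZ) against the length of the longest annotated transcript (x axis, nt, log scale) for the protein-coding genes tested (gray) and the 10 histone modifier genes (red); blue lines are medians of 5 length classes. The medians rise from -0.80 for the shortest to 0.51 for the longest class, and Kmt2d, Crebbp and Ep300 lie above the median of their class.

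The erasers Kdm6b, Kdm1a and Hdac3 did not pass the threshold, and for each the MBC and LZ ranges overlapped. Kdm6b was at 3.84, 5.77, 5.31 and 4.97 TPM in the LZ and at 5.19, 21.3 and 3.31 TPM in MBCs. One MBC library, replicate 3, carried the difference of 0.50 (SE 0.62, adjusted p = 0.640), which was -0.20 without it. Kdm1a was at 30.0, 35.9, 38.6 and 24.8 TPM in the LZ and at 58.6, 25.5 and 41.2 TPM in MBCs. The groups overlapped, with a difference of 0.30 (SE 0.35, 95% interval -0.50 to 1.11, adjusted p = 0.623) that ran from 0.026 without MBC replicate 1 to 0.61 without MBC replicate 3. Hdac3 was at 13.6, 19.8, 22.7 and 21.6 TPM in the LZ and at 1.94, 4.02 and 17.1 TPM in MBCs. MBC replicate 4 fell within the LZ range, while the other MBC libraries were far below it. The difference was -1.64 (SE 0.62, adjusted p = 0.129) and it ran from -1.07 without MBC replicate 1 (adjusted p = 0.229) to -2.39 without MBC replicate 4 (adjusted p = 0.0104).

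**Figure D3:**
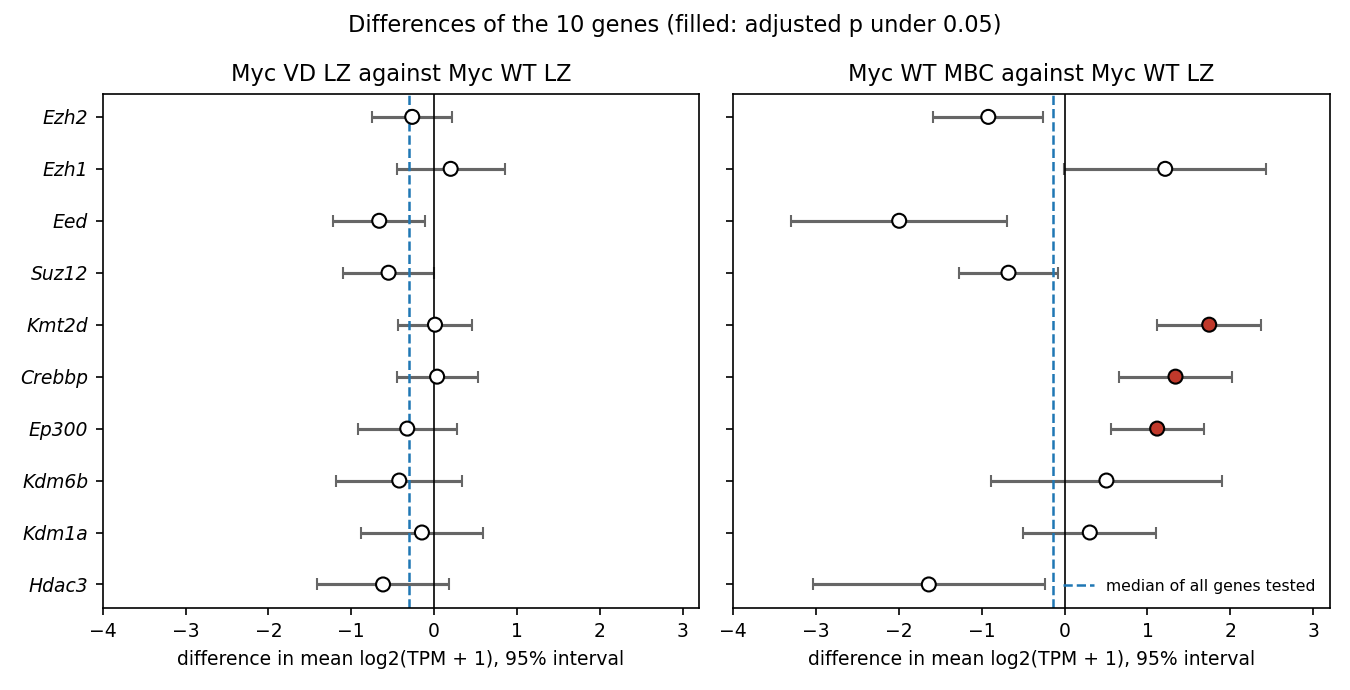
Difference in mean log2(TPM + 1) from Myc WT LZ (x axis) for the 10 genes in Myc VD LZ (left) and in Myc WT MBCs (right), with 95% intervals from limma; filled points have an adjusted p under 0.05 and the dashed line is the median of all genes tested. In MBCs the filled points are Kmt2d at 1.75, Crebbp at 1.34 and Ep300 at 1.12, and no point is filled for Myc VD.

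Genes that work with the 10 members were taken from 10 lists by function. Of all genes tested in MBCs, 4.17% were called higher and 5.04% lower. Of 8 PRC2 partners tested in MBCs, 1 rose and 2 fell: Jarid2, which recruits PRC2, rose from 35.5 ± 9.85 to 85.5 ± 20.5 TPM (1.25, adjusted p = 0.0424), and the Polycomb-like proteins Phf19 and Mtf2 fell from 30.8 ± 4.92 to 4.18 ± 4.11 TPM (-2.89, adjusted p = 0.0145) and from 318 ± 65.7 to 143 ± 44.5 TPM (-1.16, adjusted p = 0.0310). Of 19 PRC1 subunits, 2 rose and 0 fell: Cbx7, a reader of H3K27 methylation, by 2.40 (adjusted p = 0.0235) and Phc3 by 2.12 (adjusted p = 0.00952). Of 16 genes of H3K4 methyltransferase complexes other than Kmt2d, 3 rose and 0 fell: Setd1b by 2.00 (adjusted p = 0.0261), Kmt2c, the closest relative of Kmt2d, by 1.39 (adjusted p = 0.00995) and Kmt2a by 0.97 (adjusted p = 0.0238). Of 12 further histone lysine demethylases, 2 rose and 0 fell, Kdm2a by 1.19 and Kdm3a by 1.11 (both adjusted p = 0.0310). None of 9 further acetyltransferases and none of 10 further deacetylases passed the threshold, and at an unadjusted p under 0.05 there were 2 of the former and 1 of the latter, where 27.1% of all genes had one. The largest differences there were 1.60 for Kat6b (adjusted p = 0.0622) and 1.27 for Kat8 (adjusted p = 0.0934) among the former, and -1.0 for Hdac1 (adjusted p = 0.340) and -0.89 for Sirt1 (adjusted p = 0.460) among the latter. MBC replicate 3 carried both deacetylase values: without it Hdac1 was at -0.059 and Sirt1 at 0.093, and the median of the deacetylase list went from -0.29 to 0.050. In the length-corrected fit, 2 of the PRC2 partners (Phf19 and Mtf2) remained lower, 3 PRC1 subunits were called higher, Setd1b alone was called of the H3K4 list (1.62, adjusted p = 0.0400), Kdm3a alone of the demethylases (1.04, adjusted p = 0.0332) and Kat8 was called among acetyltransferases (1.85, adjusted p = 0.0407). With the mouse block, no gene of these 6 lists was called. On leaving out any 1 LZ library, the demethylase list had 0 calls, the H3K4 list 1, the PRC1 list 1 and the PRC2 partners 0, or 1 without LZ replicate 4.

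The counts called in the next 4 lists also stand beside 4.17% of all genes called higher and 5.04% lower in MBCs. Of 11 corepressor partners of HDAC3 and KDM1A, 1 rose and 1 fell in MBCs. Ncor1, the corepressor that activates HDAC3, rose from 193 ± 20.6 to 411 ± 43.7 TPM (1.09, adjusted p = 0.0120), and Bcl6, the GC repressor that recruits it, fell from 185 ± 24.6 to 41.7 ± 16.2 TPM (-2.20, adjusted p = 0.00594; -2.21 with the mouse block, adjusted p = 0.0376). Of 13 other lymphoma-linked chromatin genes, 1 rose and 2 fell: the DNA demethylase Tet2 rose by 1.93 (adjusted p = 0.0310), and the GC factor Mef2b and the H3K36 methyltransferase Nsd2 were at -4.84 (adjusted p = 0.00283) and -1.34 (adjusted p = 0.0152). Ncor1 and Tet2 lost the call with the length correction (0.69, adjusted p = 0.0508, and 1.53, adjusted p = 0.0503) and with the mouse block (adjusted p = 0.118 and 0.113), Nsd2 lost it with the block (adjusted p = 0.0881), and Mef2b kept it in both. Of 4 tested genes listed as silenced by EZH2 in GC B cells, Cdkn1b, an inhibitor of cyclin-dependent kinases, rose from 4.42 ± 0.401 to 27.2 ± 17.7 TPM (2.13, adjusted p = 0.0457), and Irf4 was at 0.75 (adjusted p = 0.313), Prdm1 at 0.32 (adjusted p = 0.859) and Cdkn1a at -1.78 (adjusted p = 0.158). Single MBC libraries moved these values: Irf4 was at 1.3 without MBC replicate 3 (adjusted p = 0.0203), Prdm1 ran from -0.63 without MBC replicate 1 to 1.51 without MBC replicate 3, Cdkn1a was at -2.64 without MBC replicate 4 (adjusted p = 0.0133) and Cdkn1b at 1.66 without MBC replicate 3 (adjusted p = 0.0576). Without any 1 LZ library, neither Tet2 nor Cdkn1b was called. Ncor1 lost its call without LZ replicate 2, and Nsd2 without LZ replicate 1 (adjusted p = 0.0560). Bcl6 lost its call with the mouse block and the length correction together. With the length correction the call of Cdkn1b was lost (2.11, adjusted p = 0.0648), and with the mouse block too (2.16, adjusted p = 0.195). Of 14 proliferation genes, 11 fell and 0 rose, among them Tyms (-5.26), Birc5 (-3.89), Cdk1 (-3.47) and Rrm2 (-2.97), with adjusted p of 0.0110, 0.0261, 0.0358 and 0.0217; 10 were called with the length correction, 6 with the mouse block, 4 without LZ replicate 1, 2 or 3, and 1 with the block and the length correction together. These 14 genes summed to 1397 to 2613 TPM in Myc WT LZ and 389 to 657 TPM in MBCs, beside an Ezh2 level that was lower in each MBC library; the part of proliferation in the level of Ezh2 was not tested.

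**Figure D4:**
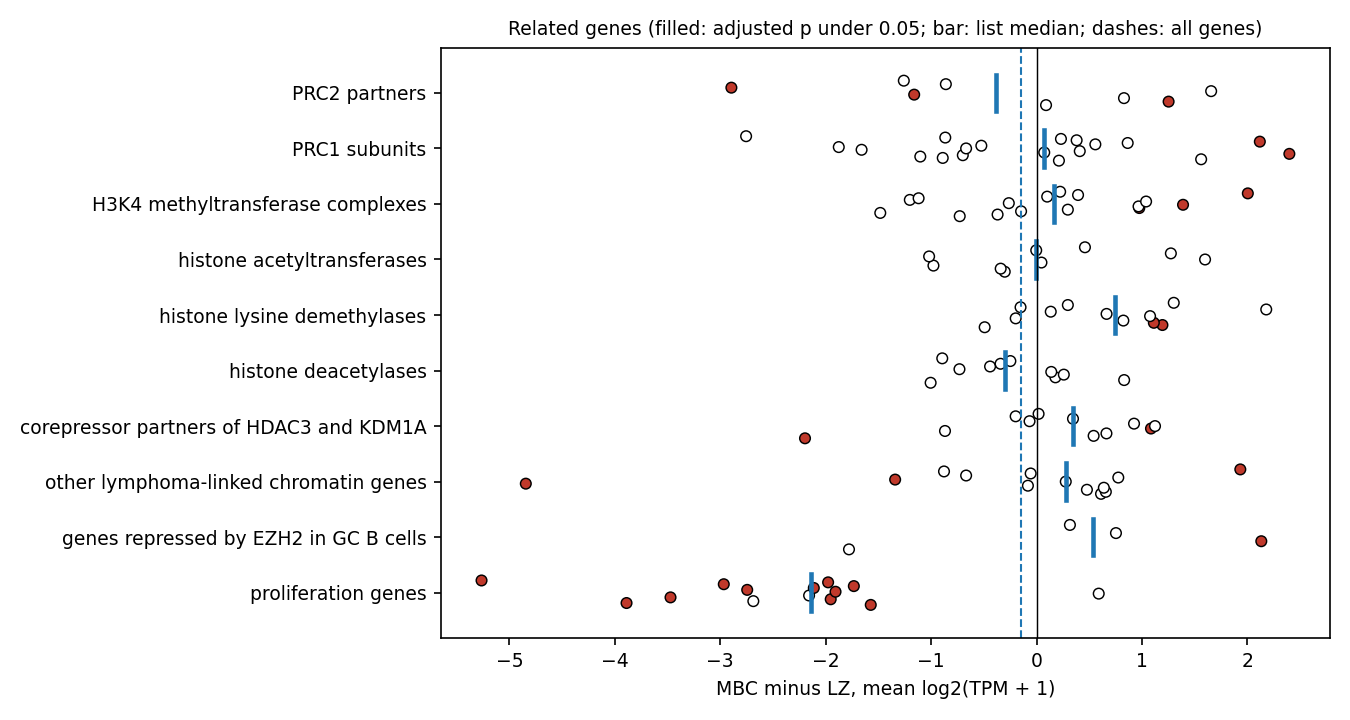
Differences between MBCs and LZ B cells of Myc WT mice (x axis, mean log2(TPM + 1), MBC minus LZ) for genes of 10 lists of related function (rows); each point is 1 gene, filled where the adjusted p is under 0.05, the blue bar is the median of the list and the dashed line that of all genes (-0.14). The proliferation list has 11 filled points, all lower, and the H3K4 list has 3, all higher. Of all genes tested, 5.04% were called lower and 4.17% higher.

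The comparison of Myc VD with Myc WT LZ B cells asks what the loss of MYC-MIZ1 binding does to these transcripts while the cells are in the GC. None of the 10 genes was called higher or lower (limma, Benjamini-Hochberg), and the lowest adjusted p among them was 0.226, for Eed. Over all 12869 genes tested 0.00777% were called higher and 0.0389% lower, 6 genes in all. At an unadjusted p under 0.05, 1 member was lower (Eed), against 15.7% of all genes. The groups overlapped for every member, against 0.816% of all genes that were apart on the higher and 9.16% on the lower side. The median difference was -0.29 for the 10 genes and -0.31 for all genes. Values here are Myc VD minus Myc WT, and those relative to the median of all genes are 0.31 higher.

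Ezh2 was at 263, 228, 147 and 166 TPM in Myc VD LZ replicates 1 to 4, of which replicates 3 and 4 were below the Myc WT range of 198 to 265 TPM and the others within it. Its difference was -0.26 (SE 0.22, 95% interval -0.75 to 0.22, adjusted p = 0.567) and 0.04 relative to the median of all genes, and its sign turned to 0.08 with median-ratio rescaling. On leaving out 1 library, the difference of Ezh2 ran from -0.40 to -0.13. Ezh1 was at 14.96, 13.6, 9.75 and 10.1 TPM, with a difference of 0.20 (SE 0.30, -0.45 to 0.85, adjusted p = 0.761), which was 0.52 with median-ratio rescaling and 0.031 without Myc WT replicate 4. Eed was at 151, 82.9, 75.8 and 76.7 TPM. Replicates 2 to 4 were below each Myc WT library and replicate 1 was within the Myc WT range. The difference of Eed was -0.66 (SE 0.25, -1.21 to -0.11, unadjusted limma p = 0.0229, exact permutation p = 0.0857). It was -0.32 with median-ratio rescaling, -0.35 with quantile normalization or without ribosomal RNA genes, -0.27 with the length correction and -0.30 with the GC correction, and in none of these fits did it pass even at an unadjusted p. Without replicate 1 it was -0.90 (adjusted p = 0.0517), and in that fit 254 genes were called in place of 6. Suz12 was at 83.2, 56.8, 44.4 and 46.0 TPM, again with replicate 1 highest, and differed by -0.55 (SE 0.25, adjusted p = 0.298; exact permutation p = 0.114), or -0.21 with median-ratio rescaling. Relative to all genes, Eed was at -0.35 and Suz12 at -0.24.

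Kmt2d was at 55.4, 61.7, 61.0 and 75.3 TPM in Myc VD, and Crebbp at 60.7, 46.4, 52.2 and 43.5 TPM. On the TPM scale the differences were 0.01 (SE 0.20, 95% interval -0.43 to 0.45, adjusted p = 0.985) and 0.04 (SE 0.22, -0.45 to 0.53, adjusted p = 0.952), which correspond to 0.32 and 0.34 relative to the median of all genes, and to 0.35 and 0.38 with median-ratio rescaling (adjusted p = 0.528 and 0.422), where Crebbp alone of the members passed at an unadjusted p. Ep300 was at 199, 79.2, 144 and 147 TPM, with replicate 2 lowest, and differed by -0.32 (SE 0.27, adjusted p = 0.566), or 0.02 with median-ratio rescaling. Its difference was -0.07 without replicate 2 and -0.51 without replicate 1. Kdm6b was at 4.75, 2.96, 2.19 and 4.30 TPM (-0.42, SE 0.35, adjusted p = 0.562, with -0.14 under median-ratio rescaling and -0.55 to -0.26 on leaving out 1 library). Kdm1a was at 51.5, 16.9, 36.4 and 21.1 TPM, a wider range than in Myc WT on both sides (-0.15, SE 0.34, adjusted p = 0.857; 0.19 with median-ratio rescaling). Hdac3 was at 21.8, 6.67, 16.2 and 8.79 TPM, with replicates 2 and 4 below each Myc WT library (-0.62, SE 0.36, adjusted p = 0.412; -0.30 with median-ratio rescaling, -0.88 without replicate 1 and -0.36 without replicate 2).

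In none of the 10 lists was a gene called in Myc VD (limma, Benjamini-Hochberg), and 15 of the 117 entries tested had an unadjusted p under 0.05, as did 16.9% of all genes. Without Myc VD replicate 1, 1 list gene was called, Dpy30 (-1.44, adjusted p = 0.0369). The genes named next had the largest differences of their list on the TPM scale, where the median of all genes is -0.31. The order depends on the scale: after the length correction Kat2a, of the acetyltransferase list, was at 0.78 and Kat8 at -0.32. Among PRC2 partners these were -0.72 for Phf1 (adjusted p = 0.529) and -0.67 for Rbbp7 (adjusted p = 0.245), among PRC1 subunits -0.96 for Pcgf5 (adjusted p = 0.191) and -0.74 for Cbx8 (adjusted p = 0.383), and in the H3K4 list -1.32 for Dpy30 (adjusted p = 0.0694) and -0.82 for Ash2l (adjusted p = 0.251). Dpy30, a small subunit shared by the H3K4 methyltransferases, was at 59.6 ± 11.6 TPM in Myc WT and 23.2 ± 4.63 TPM in Myc VD (SD, n = 4), and its groups did not overlap. Differences moved with transcript length in this comparison too, from a median of -0.51 under 2000 nt to -0.089 at 8000 nt or more, and Dpy30, with a transcript of 789 nt, was at -0.82 after the length correction (adjusted p = 0.203). Among acetyltransferases they were -0.76 for Kat8 (adjusted p = 0.483) and 0.46 for Kat2a (adjusted p = 0.368), among demethylases -0.68 for Kdm4b (adjusted p = 0.517) and 0.39 for Kdm5c (adjusted p = 0.411), and among deacetylases -0.72 for Hdac6 (adjusted p = 0.547) and -0.61 for Hdac5 (adjusted p = 0.519). Phf21a, which binds KDM1A, was at 0.70 (adjusted p = 0.170) among corepressor partners, and the H3K9 methyltransferase Ehmt1 at 0.79 (adjusted p = 0.132) and Smarcb1 at -0.75 (adjusted p = 0.191) among the lymphoma-linked genes. Of the EZH2 targets, Cdkn1a was at -0.92 (adjusted p = 0.539) and Cdkn1b at 0.67 (adjusted p = 0.430), with groups that did not overlap. Several of these values rested on Myc VD replicate 2: without it Cdkn1b was at 0.27, Cdkn1a at -0.24, Hdac6 at -0.21, Kdm4b at -0.17, Kat8 at -0.26 and Ash2l at -0.53. Without Myc VD replicate 1, Phf1 was at -0.44, Hdac5 at -1.01 and Cdkn1a at -1.51. Of the 14 proliferation genes, 13 were lower, where 73.7% of all genes were. Their median of -0.53 was -0.20 with median-ratio rescaling, -0.23 without ribosomal RNA genes and -0.19 with the length correction, and the largest differences were -0.65 for Ccnb1 (adjusted p = 0.467; -0.36 without Myc VD replicate 4) and -0.64 for Pcna (adjusted p = 0.223).

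The balance of the paired enzymes was read within each library, where scaling cancels. Ezh2 was 17.1, 23.7, 24.3 and 28.7 times as high as Ezh1 in Myc WT LZ replicates 1 to 4, 17.6, 16.8, 15.1 and 16.5 times as high in Myc VD LZ, and 3.15, 8.49 and 4.6 times as high in MBC replicates 1, 3 and 4. Every MBC library had a lower ratio than any LZ library. The Myc VD ratios lay around and below the lowest Myc WT ratio, and the ranges overlapped. The Crebbp to Ep300 ratio was 0.267 to 0.342 in Myc WT LZ, 0.297 to 0.587 in Myc VD LZ and 0.263 to 0.396 in MBCs, and these ranges overlapped in all pairs of groups. Eed stood at 0.590 to 0.679 times Ezh2 in Myc WT LZ and at 0.363 to 0.576 times Ezh2 in Myc VD LZ, ranges that did not overlap, while in MBCs it ran from 0.0976 to 1.07 times. For Suz12 over Ezh2 the ranges overlapped, with 0.284 to 0.420 in Myc WT LZ, 0.249 to 0.317 in Myc VD LZ and 0.264 to 0.701 in MBCs. These ratios are descriptions and were not tested. Those of Eed and Suz12 over Ezh2 were not planned, and the share of all gene pairs with such a separation was not computed.

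**Figure D5:**
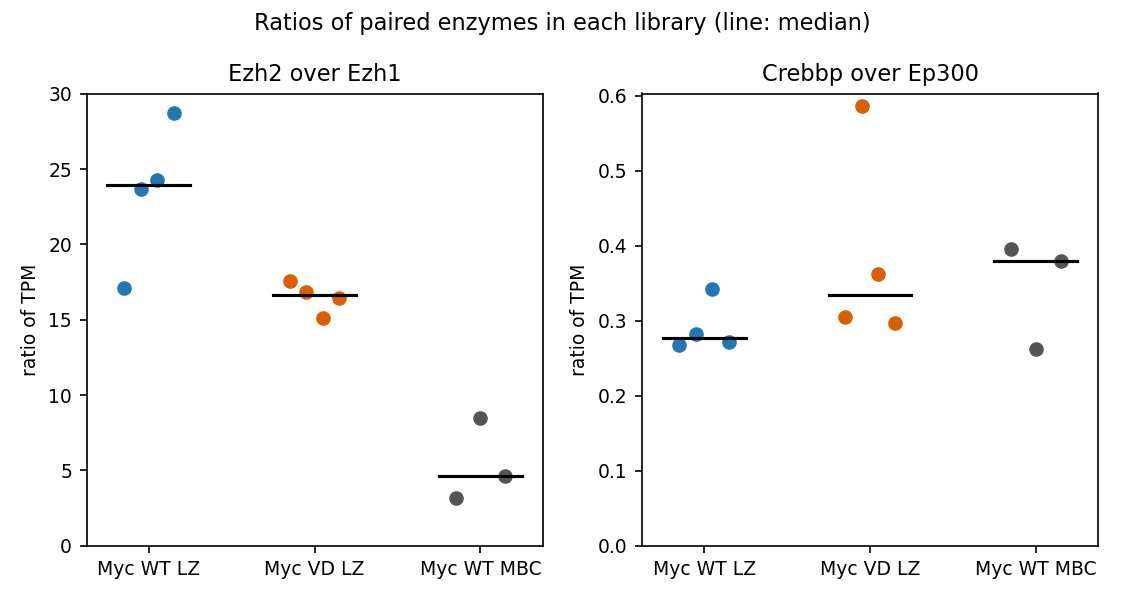
Ratio of TPM (y axis, linear) of Ezh2 over Ezh1 (left) and Crebbp over Ep300 (right) in each library of the 3 groups; points are libraries and lines are medians. The Ezh2 to Ezh1 ratio is 15.1 to 28.7 in the LZ libraries and 3.15 to 8.49 in MBCs, and the Crebbp to Ep300 ratios overlap between groups.

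Over the 11 libraries, the genes whose log2(TPM + 1) followed that of Ezh2 most closely, among 9221 other genes averaging 5 TPM or more, were Minos1 (Pearson's r = 0.931), Kif24 (0.911), Cycs (0.908), Stau2 (0.907) and Prc1 (0.905). Minos1 is a mitochondrial inner membrane protein, Cycs is cytochrome c, and Prc1 organizes the spindle midzone in cytokinesis. Minos1 was at 181 to 314 TPM in Myc WT LZ, 116 to 235 TPM in Myc VD LZ and 62.5 to 136 TPM in MBCs. Among the members, Suz12 had r = 0.638 with Ezh2 and Eed r = 0.581, and Kmt2d had r = -0.649. The libraries share cell types and mice, so these values describe the set of libraries and carry no test.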

How the data were processed

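RNA of sorted B cells was sequenced with a Nugen cDNA kit on Illumina HiSeq, per the labels. The authors aligned reads with STAR 2.5.2a and quantified Ensembl genes of GRCm38 with RSEM 1.3.0 (versions from the submitters' processing notes), strand-specifically, and deposited TPM with 2 decimals in 1 table of 11 libraries. TPM keep no depth: precision is read from the spread between mice, counting error is not known, and a value of 0 can be a failed estimate. Since TPM share a fixed total, a change in the share of ribosomal RNA shifts all other values.

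Symbols and lengths of the longest transcript came from GENCODE M21 (GRCm38), which named 48349 genes. Groups came from the labels. Each comparison with Myc WT LZ was fitted with limma 3.58.1 in R 4.3.3 (lmFit, eBayes with trend) on log2(TPM + 1), keeping genes that averaged 1 TPM or more in the fitted libraries, two-sided with Benjamini-Hochberg adjustment at 0.05 over all genes tested. Both comparisons share the Myc WT LZ libraries. Members were also tested by exact two-sided permutation of the difference in means (scipy 1.17.1, 70 or 35 groupings, smallest p 0.0286 or 0.0571). By the labels, an MBC and an LZ library that share a number are from 1 mouse; their deviations from the group means correlated across genes at r = 0.00507, 0.0115 and -0.047. Library numbers do not pair Myc VD with Myc WT mice. The fit was tested on simulated data.

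The members and gene lists were chosen with earlier results of these data known. Named were the members, the called genes of each list (at most 4 per list and comparison with the largest difference), the 2 with the largest difference where none was called, markers, and the 5 genes most like Ezh2; Irf4, Prdm1 and Cdkn1a in MBCs, and Kat8 under the length correction, were named after their values were seen. One gene that this rule names is not reported here. Tried as alternatives were no filter, an average of 5 TPM or more, a pseudocount of 0.1, median-ratio rescaling, quantile normalization, removal of ribosomal RNA or of immunoglobulin and mitochondrial genes, no trend, all 3 groups in 1 fit, unadjusted p, the mouse as a block, 1 label prefix and each library left out. Corrections for transcript length and GC content (lowess, span 0.3), alone or with the block, and the medians of genes of like length were added after seeing the data.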

Additional observations from a re-analysis of the deposited data

Results flagged for a closer look

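Of 20 groups of 4 LZ libraries tested for a value far from the rest (10 genes in 2 groups each, where chance flags about 1 in 20), 1 was flagged. Eed in Myc VD LZ replicate 1 was at 151 TPM, above 75.8 to 82.9 TPM in the other Myc VD libraries and within the Myc WT range of 117 to 171 TPM. Its gap to the nearest library took 0.870 of the range on the log2 scale, above Dixon's 95% limit for a group of this size. Myc VD replicate 1 was also the highest of its group for Ezh2, Ezh1, Suz12, Crebbp, Ep300, Kdm6b, Kdm1a and Hdac3, although for none of these was it beyond that limit.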

How the results depend on the processing

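In no alternative was a member called in Myc VD at an adjusted p under 0.05. In the fit as reported 1 member, Eed, passed at an unadjusted p, and without Myc VD replicate 1 Eed, Suz12 and Hdac3 did. The 6 genes called in Myc VD LZ became 0 with a pseudocount of 0.1, no filter, median-ratio rescaling, all 3 groups in 1 fit, only Myc WT mice of prefix BRAC861, the length correction or the GC correction, 1 without ribosomal RNA or without immunoglobulin and mitochondrial genes, 15 at a mean of at least 5 TPM and 2180 at an unadjusted p under 0.05 (where 1 member was called), and ran from 0 to 254 on leaving out 1 library (254 without Myc VD replicate 1). The members' median of -0.29 became 0.050 with median-ratio rescaling, 0.021 with quantile normalization, 0.018 without ribosomal RNA, -0.13 with the length and 0.058 with the GC correction, and -0.47 to -0.20 on leaving out 1 library. Signs turned in Myc VD for Ezh2 (0.080 median-ratio, 0.062 quantile, 0.048 without ribosomal RNA, 0.087 length, 0.12 GC), Kdm1a (0.19, 0.12, 0.16, 0.19 and 0.17 in that order, and -0.42 to 0.10 on leaving out 1 library), Ep300 (0.019 median-ratio), Kmt2d (-0.041 with prefix BRAC861, -0.039 with the length correction, -0.074 to 0.087 on leaving out 1 library) and Crebbp (-0.073 with prefix BRAC861, -0.073 to 0.12 on leaving out 1 library). The cause was not tested.

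For MBCs, the 1219 genes called became 608 with no filter, 3587 at an unadjusted p and 342 to 2754 on leaving out 1 library (342 without LZ replicate 2, 2754 without MBC replicate 4). The 3 members called became 1 with no filter, 1 without trend, 6 with quantile normalization, 0 with the length correction, 7 at an unadjusted p and 1 to 5 on leaving out 1 library. With the mouse as a replicate block, 248 genes and 1 member were called (342 genes and 1 member in the same 6 libraries without the block), and with the block and the length correction 91 genes and 0 members. The block turned no member's direction. Kdm6b turned to -0.20 without MBC replicate 3 (range -0.20 to 0.99). The difference in the Ezh2 to Ezh1 ratio kept its direction with a pseudocount of 0.1 and on leaving out each library, the only alternatives run for it. Over both comparisons, 481 of the values under alternatives were unchanged in direction and side of the threshold or moved little, 45 moved, 22 reversed, 17 newly passed the threshold and 23 no longer did. Depth is unknown, so which low values are limited by counting cannot be said.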
